A study of Homo sapiens with 151 samples.

Results

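The promoters examined here are CpG-poor and yet carried peaks of a large share of the DNA-associated proteins (DAPs) mapped in HepG2 cells. They are the windows of 500 bp on either side of the canonical transcription start site (TSS) of protein-coding genes of GENCODE 44 that do not have both a GC share over 0.5 and an observed over expected CpG over 0.6 on hg38, and that were overlapped by peaks of 31 or more of the preferred lists. They were thus chosen by the number of lists with a peak, which is given here as a description and not as a finding. There were 575 such promoters, called members below, of 20033 coding promoters and of 7057 CpG-poor ones. Some lie side by side and share peaks, so that the 575 windows formed 546 separate stretches of the genome.

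HepG2 is an established human liver cancer cell line that keeps many features of hepatocytes. Each DAP carried a FLAG tag and was precipitated with an antibody against FLAG, and 1 peak list was made per DAP against an input library made without pulldown. Of the 127 lists, 6 were marked non-preferred by the authors, and the preferred ones, for transcription factors (TFs) and 15 other DAPs, had 195 to 61748 peaks with a median of 8680. The lists hold no replicates and no depth, so lists served as the samples.

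Most human promoters lie in CpG islands, stretches that escape the usual loss of CpG dinucleotides and tend to start transcription at many positions in many cell types. Promoters without an island are more often tied to one tissue, and some of them carry a TATA box that places the start of transcription at a set distance downstream. Liver genes for plasma proteins, apolipoproteins and metabolic enzymes are known examples of the second kind.

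The label CpG-poor covered unlike sequences, and 3 members are printed to show the range. Each is the sense strand on hg38 with every CG dinucleotide in capitals. BPIFB2, a gene of a lipid-binding family, is shown at chr20:33007554-33007753 on the plus strand and has 4 CG in 200 bases. H4C3, a histone H4 gene, is shown at chr6:26103783-26103982 on the plus strand and has 7. N6AMT1, a methyltransferase gene, is shown at chr21:28885318-28885517 on the minus strand and has 16.
BPIFB2: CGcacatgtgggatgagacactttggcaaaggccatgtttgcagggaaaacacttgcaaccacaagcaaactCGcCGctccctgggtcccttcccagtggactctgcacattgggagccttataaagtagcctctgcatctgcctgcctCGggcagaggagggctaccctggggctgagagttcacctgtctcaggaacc
H4C3: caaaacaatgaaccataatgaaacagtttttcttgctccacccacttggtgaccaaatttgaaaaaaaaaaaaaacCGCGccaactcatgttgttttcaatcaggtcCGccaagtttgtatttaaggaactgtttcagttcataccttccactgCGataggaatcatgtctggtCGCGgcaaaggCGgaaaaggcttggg
N6AMT1: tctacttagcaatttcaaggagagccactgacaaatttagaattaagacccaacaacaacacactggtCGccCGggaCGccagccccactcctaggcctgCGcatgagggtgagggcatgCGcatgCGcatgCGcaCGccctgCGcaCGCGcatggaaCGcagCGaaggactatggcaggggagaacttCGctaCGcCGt
BPIFB2 is depleted of CpG over the whole window, with an observed over expected CpG of 0.114. The other pair missed the rule on GC share alone, with a GC share of 44% in H4C3 and 48.5% in N6AMT1 and observed over expected CpG of 0.848 and 0.906.

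Of the TATA box members bound by most lists, 4 are shown next, because the TATA box is the best known element of promoters without an island. The windows run from 50 bases before to 9 after the TSS on hg38, in the sense of the gene, and capitals mark the letters TATAAA. APOB, which encodes the structural protein of low-density lipoprotein, lies at chr2:21044064-21044123 on the minus strand. GDF15, a stress-induced cytokine, lies at chr19:18386108-18386167 on the plus strand. BPIFB2 lies at chr20:33007654-33007713 on the plus strand and H4C2, another histone H4 gene, at chr6:26027274-26027333 on the minus strand.
APOB: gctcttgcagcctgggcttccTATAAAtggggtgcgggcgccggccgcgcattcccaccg
GDF15: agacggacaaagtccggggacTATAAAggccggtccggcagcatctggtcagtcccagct
BPIFB2: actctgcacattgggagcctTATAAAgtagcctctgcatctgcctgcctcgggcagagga
H4C2: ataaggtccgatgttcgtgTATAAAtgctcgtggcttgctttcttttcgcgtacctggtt
In these 4 promoters TATAAA started 29 to 31 bases before the TSS.

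RE1, the element of the repressor REST that silences neuronal genes outside neurons, is shown in 4 members because it coincided with their summits. These 4 were chosen after their values were seen. Capitals mark each match with at most 1 mismatch at the fixed letters, in the sense of the gene on hg38. HTR5A, a serotonin receptor gene, is shown at chr7:155070060-155070235, LHFPL5, a gene of hair cell mechanotransduction, at chr6:35805275-35805335, CHRNB2, a nicotinic acetylcholine receptor subunit, at chr1:154567934-154567994, and VWC2L at chr2:214411092-214411152, all on the plus strand.
HTR5A: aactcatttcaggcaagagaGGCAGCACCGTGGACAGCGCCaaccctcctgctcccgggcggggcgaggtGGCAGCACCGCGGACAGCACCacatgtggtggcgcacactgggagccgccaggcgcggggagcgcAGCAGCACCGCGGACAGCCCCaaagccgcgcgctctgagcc
LHFPL5: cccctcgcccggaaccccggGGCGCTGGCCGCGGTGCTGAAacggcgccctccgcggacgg
CHRNB2: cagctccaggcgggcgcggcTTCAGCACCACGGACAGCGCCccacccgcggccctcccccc
VWC2L: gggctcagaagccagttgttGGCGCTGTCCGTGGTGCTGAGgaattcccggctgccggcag
HTR5A held 3 matches in its window and each of the others 1.

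Members made up 8.15% of the 7057 CpG-poor coding promoters. By the same count of lists, 52.6% of the 12976 CpG-rich coding promoters and 36.9% of all coding promoters reached 31 lists. A further 1806 CpG-poor promoters had 1 to 30 lists and 4676 had none. Members had 31 to 119 lists with a median of 48, beside a median of 51 over the 6822 CpG-rich promoters past the same threshold. Of the members, 187 had 31 to 40 lists, 134 had 41 to 50, and 34 had more than 80. Just inside the threshold stood 21 members at 31 lists, the first 3 by symbol being ACTR6, an actin-related chromatin protein, ARMH1 and C20orf203. Just outside stood 32 promoters at 30 lists, the first 3 by symbol being AGTRAP, which binds the angiotensin receptor, ALDH3B1, an aldehyde dehydrogenase, and APOL2, an apolipoprotein L.

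Among the 10 members bound by most lists, HTR5A led with 119 lists, followed by STX16-NPEPL1 with 110 and STX16, a Golgi syntaxin, with 109. The TSS of this last pair lie 151 bp apart, and their windows share most of their peaks. LHFPL5 had 104 lists, N6AMT1 99, and RBM28, a nucleolar RNA-binding protein, and SST, the hormone somatostatin, 98 each. APOB, DHRS4, a retinal reductase gene, and IKZF3, a lymphoid zinc finger factor, had 97 each. Peaks at these promoters were strong within their own lists: the median percentile rank of signal was 99.7 at HTR5A, 95.4 at N6AMT1, 91.7 at SST and 86.8 at APOB. At HTR5A the rank ranged from 50.8 to 99.97 over its 119 lists, whereas at APOB it ranged from 2.14 to 99.5 over 97. At 40 members the median summit lay more than 500 bp from the TSS, so that the peaks only reached into the window, and SST with a median of 559 bp downstream was one of them.

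A minority of members, 180 (31.3%), were depleted of CpG in the manner of BPIFB2, with an observed over expected value of 0.4 or less. The CpG condition alone failed in 425 members (73.9%), the GC condition alone in 99 (17.2%) and both in 51 (8.87%). Of the 425, 161 had an observed over expected CpG between 0.55 and 0.6, and of the 99, 64 had a GC share between 0.48 and 0.5. An equally long window shifted by at most 100 bp met both conditions at 134 members (23.3%), and one shifted by at most 2000 bp at 299 (52%), whereas 276 members (48%) had no such window. In the 1806 CpG-poor promoters with 1 to 30 lists 68.4% had none, and in the 4676 with no list 86.5%.

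**Figure D1:**
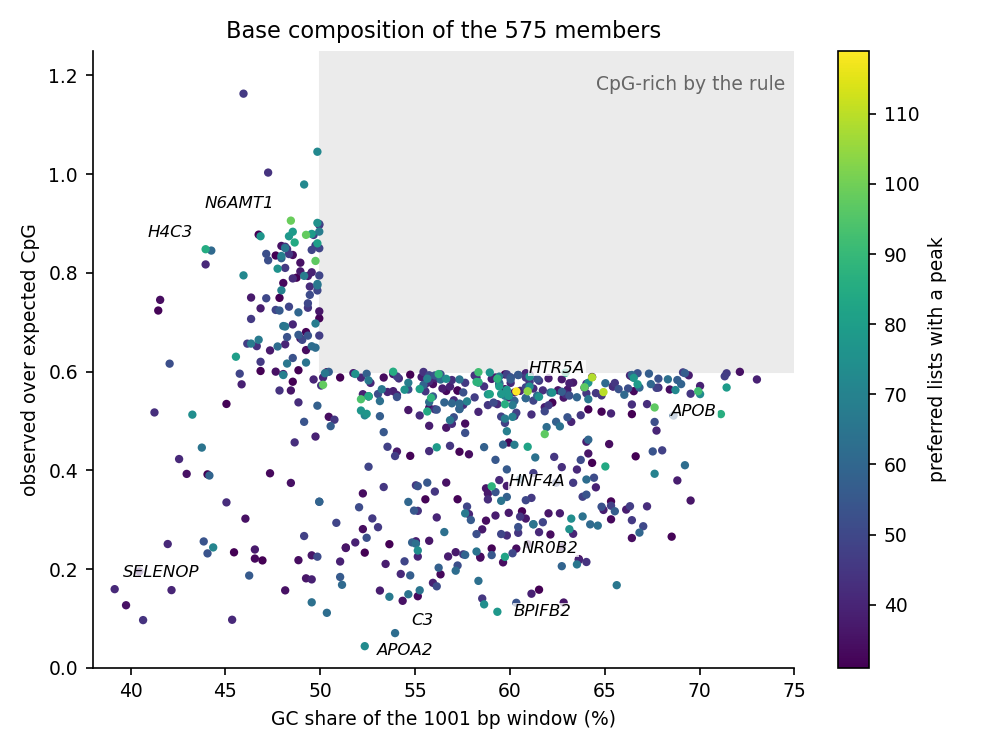
GC share of the window (x axis, %) against observed over expected CpG (y axis) for the 575 members, one point each, coloured by the number of preferred lists with a peak. Points crowd along the edges of the shaded area that would make a promoter CpG-rich, with 99 members to its left and 425 below it, and APOA2 and C3 lie lowest.

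The share of CpG-poor promoters that were members followed CpG content. It was 1.74% (37 of 2132) at an observed over expected CpG of at most 0.2, 5.07% from 0.2 to 0.4, 7.49% from 0.4 to 0.5, 22.2% from 0.5 to 0.6, and 32.8% (99 of 302) where only the GC share was low. The median number of lists among members changed little across the same groups and was 45, 45, 48, 49 and 49. The lowest CpG values belonged to liver genes: APOA2, an apolipoprotein of high-density lipoprotein, at 0.0439 with 73 lists, C3, the central complement protein, at 0.0704 with 62, and FGA, the fibrinogen alpha chain, at 0.0967 with 44. The lowest GC shares belonged to SELENOP, the selenium carrier of plasma, at 39.2% with 41 lists, LYZ, lysozyme, at 39.8% with 35, and A2M, a plasma protease inhibitor, at 40.5% with 39.

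Gene groups differed in how many of their CpG-poor promoters were members, read against 8.15% and a median of 0 lists over all CpG-poor promoters. The median number of lists over the CpG-poor promoters of a group was 35 for apolipoproteins, 22 for liver transcription factors, and 11 each for secreted plasma proteins and hepatic intermediary metabolism. Among apolipoproteins 9 of 16 were members (56.3%), led by APOB with 97 lists, APOA2 with 73 and APOA1 with 66. Among secreted plasma proteins 16 of 59 were members (27.1%), led by PROC, the anticoagulant protein C, and TF, transferrin, with 74 lists each, and AGT, angiotensinogen, with 65. Among genes of hepatic intermediary metabolism 9 of 22 were members (40.9%), led by FABP1, a fatty acid carrier, with 71, PKLR, the liver pyruvate kinase, with 61 and PCK1, a gluconeogenic enzyme, with 59. Among liver transcription factors 3 of 11 were members (27.3%), led by HNF4A with 88 lists and NR0B2, a nuclear receptor without a DNA-binding domain that represses bile acid synthesis, with 82. Among cytochrome P450 and conjugation genes 1 of 36 was a member (2.78%), SULT1A1, a sulfotransferase, with 64 lists.

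Members also included genes used by every dividing cell, and the CpG-poor histone promoters had a median of 35.5 lists. Of 30 CpG-poor promoters of replication-dependent histones, which supply chromatin in S phase, 17 were members (56.7%), led by H4C3 with 85 lists, H3C3 with 84 and H3C4 with 79, and all 3 failed on GC share alone. Of 8 CpG-poor ribosomal protein promoters 4 were members, with 80 lists at RPL23, 43 at RPL41 and 38 at RPL4, again failing on GC share alone. Among all promoters failing on GC share alone 32.8% (99 of 302) were members. On chromosome 6, where H4C3, H3C3 and H3C4 lie, 17.8% of CpG-poor promoters were members. Both shares are above the background of 8.15%. Zinc finger genes had 21 of 123 (17.1%), led by ZSCAN26 with 67, ZKSCAN3 with 62 and ZNF69 with 61. Metallothioneins, which bind metals, had 2 of 6, with 41 lists at MT1X and 32 at MT1F. Interferon response genes had 2 of 18, with 74 lists at IRF9, a subunit of the factor that carries the interferon signal, and 51 at ISG20, an exonuclease.

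For groups of other tissues the background is again 8.15% members, and 66.3% of all CpG-poor promoters had no list. Olfactory receptors had 0 members among 412 CpG-poor promoters, of which 408 had no list. Keratins had 1 of 51 (1.96%), which was KRT8 with 46 lists, a keratin of simple epithelia and of hepatocytes. The S100 and cornified envelope genes had 1 of 53 (1.89%), S100P with 42, whereas 2 groups stood near the background. Claudins and cell junction genes had 2 of 21 (9.52%), CLDN14 with 51 and CLDN4 with 32, and 12 of the 21 had no list. Other tissue markers had 3 of 32 (9.38%) with 22 at no list, and their members were SST with 98, the cardiac myosin MYH7 with 39 and the stomach protease precursor PGC with 36. The MHC class I and antigen processing group had 0 of 1, and the immediate early group had no CpG-poor promoter. In all, 91 members belonged to a listed group and 484 to none.

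The 6 non-preferred lists took no part in the choice of members, but they come from the same assay and cells as the preferred ones. EP300, an acetyltransferase of active promoters and enhancers, had a peak at 52.2% of members, against 39.4% of CpG-rich promoters with 31 or more lists and 8.64% of CpG-poor promoters with 1 to 30. TSC22D2 had 61.4%, against 54.6% and 6.31%, and TUT4, an RNA uridylyltransferase, had 45.6%, against 35.4% and 4.15%. ZNF431, a zinc finger protein, had 57.4% at members, against 60.7% and 6.42%. ZZZ3, a subunit of a histone acetyltransferase complex, had 53.4%, against 56.6% and 7.14%. GPBP1L1, whose list held 73 peaks, had 0.348% (2 members), against 0.0586% and 0%. With 575 members a share of 52.2% has a 95% Wilson interval of 48.1 to 56.2%, and these intervals cover counting error only.

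All 6 lists were higher at members than at CpG-poor promoters with 1 to 30 lists, by a mean of 39.6 ± 19.9 percentage points (SD over 6 lists). The exact sign-flip permutation test gave the smallest two-sided p that 6 lists allow, 0.031, and 0.062 after Benjamini-Hochberg adjustment over the 6 tests made, which misses 0.05. Members and these CpG-poor promoters were parted by their number of lists, so a further list was likely to be higher at members. The comparison is therefore a description and no independent support. Against CpG-rich promoters 4 lists were higher and 2 lower, by a mean of 3.90 ± 6.95 points, and this was within the spread of the lists (exact sign-flip permutation p = 0.22, adjusted 0.33). Of the members, 541 had a peak of at least 1 of these lists, 34 had none and 2, HTR5A and RSPH3, had all 6.

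**Figure D2:**
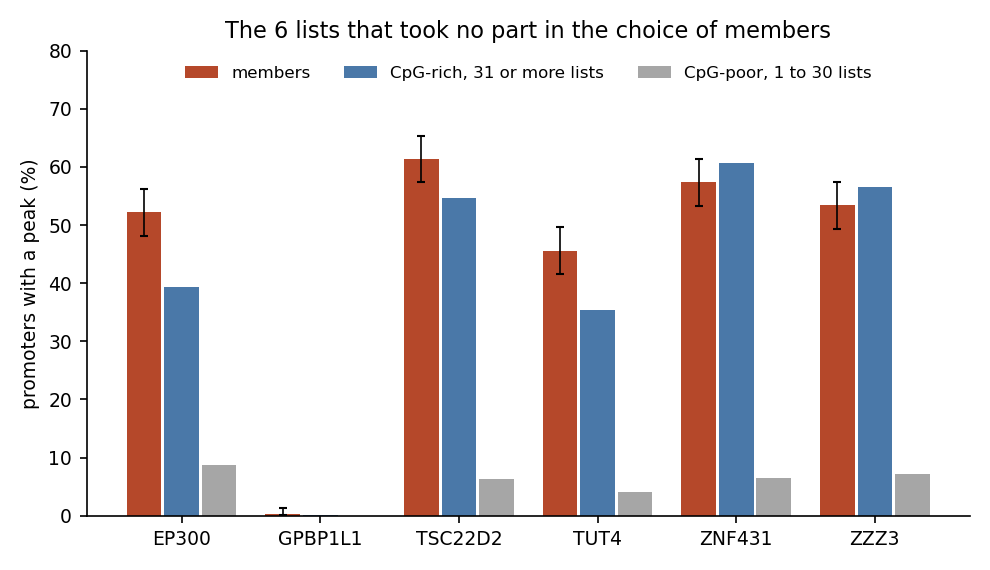
Share of promoters with a peak (y axis, %) in each of the 6 non-preferred lists (x axis), for members with their 95% Wilson intervals, CpG-rich promoters with 31 or more lists, and CpG-poor promoters with 1 to 30 lists. In 5 lists the members stand between 45.6% and 61.4%, near the CpG-rich promoters and above the 4.15% to 8.64% of the less bound CpG-poor ones, and GPBP1L1 is close to 0 throughout.

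Within the members, the share with an EP300 peak fell with CpG content up to an observed over expected value of 0.6, but not beyond it. It had a peak at 73.0% of the 37 members with an observed over expected CpG of at most 0.2, at 61.5% of the 143 from 0.2 to 0.4, at 45.3% of the 53 from 0.4 to 0.5 and at 42.8% of the 243 from 0.5 to 0.6. At the 99 members of low GC share alone, whose observed over expected CpG was over 0.6, it had 57.6%. Over the 180 CpG-depleted members, those at or under 0.4, EP300 had 63.9%, against 46.8% of the other 395, whereas TUT4 had 39.4% against 48.4% and ZZZ3 49.4% against 55.2%. These values come from 1 list each and no test was made.

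The 3 preferred lists with a peak at most members were among the longest. SALL1, a zinc finger repressor, had a peak at 560 members (97.4%), and POU2F1, an octamer-binding factor, and ZBTB12, a zinc finger protein, at 556 each (96.7%). At CpG-rich promoters with 31 or more lists the shares were 97.1% for SALL1, 96.8% for POU2F1 and 96.0% for ZBTB12. These lists held 42562 to 61748 peaks.

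The lists that leaned to members or to CpG-rich promoters are given as log2 of the share at members over the share at CpG-rich promoters. TRIM24, a bromodomain coregulator, leaned most to members, with 11% (63 members; 95% Wilson interval 8.66 to 13.8%) against 5.25%, a log2 ratio of 1.07. DPF1, a chromatin remodelling subunit, followed with 14.3% against 10.2% (0.49), then HIC2, a zinc finger repressor, with 56.2% against 43.2% (0.38), ZFP90 with 41.9% against 32.7% (0.36) and PEG3, an imprinted zinc finger gene, with 35.7% against 28.4% (0.33). At the other end stood LHX6, a LIM homeodomain factor, with 4% against 7.97% (-0.97), and ZFAT with 16% against 27% (-0.75). CAMTA1 had 19.7% against 29.1% (-0.56), TEAD2, a Hippo pathway factor, 16% against 23.7% (-0.56), and ZNF593 30.1% against 43.7% (-0.54).

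**Figure D3:**
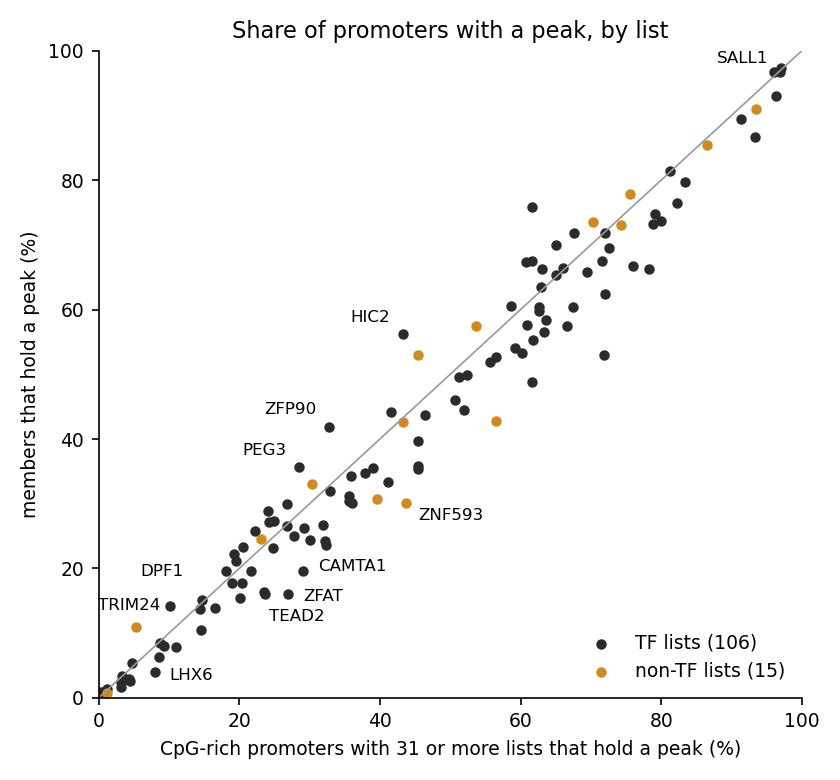
Share of the 575 members with a peak (y axis, %) against the share of the 6822 CpG-rich promoters with 31 or more lists with a peak (x axis, %), one point per preferred list, with the line of equal shares. Most of the lists lie near the line, TRIM24, DPF1, HIC2, ZFP90 and PEG3 lie above it, and LHX6, ZFAT, CAMTA1, TEAD2 and ZNF593 below.

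Several of these lists also split the members by CpG content. HIC2 had a peak at 73.3% of the 180 CpG-depleted members and at 48.4% of the others, TRIM24 at 22.2% and 5.82%, and PEG3 at 44.4% and 31.6%. ZFAT ran the other way, with 5.56% and 20.8%, as did CAMTA1, with 11.1% and 23.5%. ZFP90 leaned to members as a whole but not to the depleted ones, with 37.2% and 44.1%.

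The ratios are given by class of DAP as a description, with no test, because these lists also chose the promoters. The 50 TF lists whose symbol starts with ZNF, ZFP, ZSCAN, ZBTB or ZKSCAN had a mean log2 ratio of -0.10 ± 0.21 and the other 56 TF lists, which include zinc finger proteins of other names such as HIC2, SALL1 and PEG3, -0.10 ± 0.37 (SD over lists). All TF lists together had -0.10 ± 0.30 and the 15 non-TF lists -0.024 ± 0.40.

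By the median of each list, summits lay closer to the TSS at members than at CpG-rich promoters. In the 113 preferred lists with at least 20 peaks at each class, the median distance from summit to TSS averaged 145 ± 47.1 bp at members and 170.3 ± 45.8 bp at CpG-rich promoters (SD over lists). The difference was -25.1 ± 17.9 bp, and the distance was shorter at members in 104 lists and longer in 7. The sign-flip permutation test gave the smallest p that 100000 draws allow, 1e-05 (adjusted 6e-05). Examples were ZFP90, with 85.0 bp at members and 163 bp at CpG-rich promoters, and HIC2, with 152 bp and 184.5 bp. All lists were read at the same promoters, which they had also chosen. The p-value thus measures the spread between lists and not between promoters. Lists that share an input library are not independent, and in the 6 libraries with 6 or more such lists the mean difference was between -31.6 and -7.58 bp. The difference was 0.063 bp (p = 0.98) with windows of 250 bp on either side of the TSS. GC share and CpG were counted in the same windows, which left 349 members and 6305 CpG-rich promoters. The difference was -7.89 bp (adjusted p = 0.071) where only promoters with an observed over expected CpG of at most 0.4 counted as CpG-poor. The causes of these changes were not tested.

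The profile of summits showed where the difference lay. Of the 29559 peaks at members, one per list and promoter, 42.1% had their summit within 100 bp of the TSS, beside 36.2% of 368745 at CpG-rich promoters and 35.8% at CpG-poor promoters with 1 to 30 lists. Summits upstream of the TSS made up 48.5% at members and 52.0% at CpG-rich promoters. Within 500 bp of the TSS lay 88.5% of summits at members and 90.2% at CpG-rich promoters, so distant summits were not fewer at members. The median summit of a promoter lay within 100 bp of its TSS at 317 members (55.1%), more than 100 bp upstream at 146 and more than 100 bp downstream at 112. Fewer members than CpG-rich promoters had the TSS of another gene within 1000 bp, 163 (28.3%) against 45.6%, and without promoters of this kind the difference in distance was -28.3 bp (adjusted p = 6e-05).

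**Figure D4:**
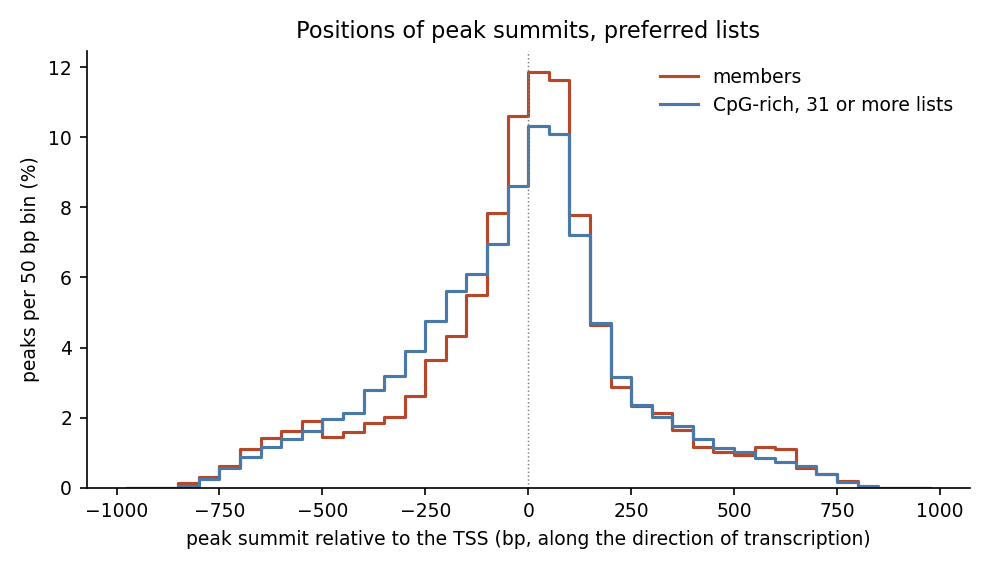
Peaks per 50 bp bin (y axis, % of the peaks of a class) against the position of the summit relative to the TSS (x axis, bp, positive downstream), pooled over the preferred lists, for members and for CpG-rich promoters with 31 or more lists. Both peak just downstream of the TSS, where the bin from 0 to 50 bp holds 11.9% of summits at members and 10.3% at CpG-rich promoters, and the CpG-rich curve is the higher one between 100 and 500 bp upstream.

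The signal of the peaks differed little. The median percentile rank of signal within a list averaged 67.0 ± 7.54 at members and 65.7 ± 9.34 at CpG-rich promoters over the 113 lists, a difference of 1.29 ± 5.64 points that was positive in 58 lists and negative in 55 (sign-flip permutation p = 0.013, adjusted 0.04). This call did not hold in every setting: of 15 alternatives 10 kept its direction and call, 3 lost the call and 2 reversed the direction. The difference turned to -0.84 points (adjusted p = 0.44) with windows of 250 bp. Where CpG-poor meant an observed over expected CpG of at most 0.4, it turned to -2.66 points (adjusted p = 0.046). Within the 6 input libraries the difference lay between -2.38 and 4.32 points. TRIM24 had the largest shift, with a median rank of 69.8 at members and 35.6 at CpG-rich promoters.

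Short sequence elements in the window from 250 bases before to 50 after the TSS were counted on both strands as exact letters, except TATAAA, which was sought on the sense strand with its start 40 to 20 bases before the TSS. A match is no proof of a site. TATAAA was found in 36 members (6.26%, 95% Wilson interval 4.56 to 8.55%), against 1.58% of CpG-rich promoters with 31 or more lists, 4.87% of CpG-poor promoters with 1 to 30 lists, 9.05% of those with none, and 3.95% of all coding promoters. It was found in 11.1% of the 180 CpG-depleted members (7.31 to 16.5%). Of the 36, 10 failed on GC share alone, and all of these were replication-dependent histone genes. The 5 members with TATAAA bound by most lists were APOB with 97, NR0B2 with 82, GDF15 with 79, BPIFB2 with 78 and H4C2 with 77.

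Of the letters recognised by liver factors, those of HNF4 and HNF1 were rare in every class and least rare at members. The HNF4 letters CAAAGTCCA were found in 14 members (2.43%, 1.46 to 4.05%), against 0.103% of CpG-rich promoters with 31 or more lists, 1.11% of CpG-poor ones with 1 to 30 and 0.319% of all coding promoters. Of the 14, 11 were CpG-depleted members (6.11% of 180). The HNF1 letters TTAATNATT were found in 2.61% of members, against 0.264% of CpG-rich promoters, 2.05% of CpG-poor ones with 1 to 30 lists and 0.909% of all. The FOXA letters TGTTTGC were found in 5.57% of members, against 2.15%, 4.65% and 3.12%, and with A in place of the last G, TGTTTAC, in 3.30%, against 2.04%, 3.65% and 2.42%. The C/EBP letters TTGCNNAA were found in 10.3%, against 5.97%, 11.4% and 8.11%. The 4676 CpG-poor promoters with no list had 0.321% for the HNF4 letters and 1.92% for the HNF1 letters. For TGTTTGC they had 4.90%, near the members, and for TGTTTAC 3.89% and TTGCNNAA 13.6%, above the members.

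Elements typical of CpG islands fell between the classes. The GC box GGGCGG was found in 50.4% of members, against 78.6% of CpG-rich promoters with 31 or more lists, 38.8% of CpG-poor ones with 1 to 30 lists and 61.3% of all coding promoters. The ETS letters CCGGAAG were found in 17%, against 25.6%, 6.81% and 14.1%, the NRF1 letters GCGCATGCG in 2.09%, against 5.16%, 0.443% and 2.70%, and the YY1 letters AAGATGGCG in 3.48%, against 5.34%, 1.44% and 2.84%. The 180 CpG-depleted members held 0 NRF1 and 0 YY1 matches. All of these letters hold a CG, and the classes and the depleted members were set by CpG content. Their order is thus no separate finding about the members, and the part of base composition was not tested. The CCAAT box, which holds no CG, showed no such order, with 37.2%, against 36.8%, 35.1% and 36.1%. The remaining letters were found in 8% of members for the E-box CACGTG, 5.22% for the AP-1 letters TGANTCA, 2.43% for the octamer ATTTGCAT, 2.26% for the CRE TGACGTCA and 0.522% for the ZNF143 letters ACTACAATT. Over all coding promoters these shares were 8.76% for CACGTG, 5.44% for TGANTCA, 1.62% for ATTTGCAT, 2.69% for TGACGTCA and 0.449% for ACTACAATT. CACGTG and TGACGTCA, which also hold a CG, fell between the classes too. At CpG-rich promoters with 31 or more lists they had 12.1% and 4.25%, at CpG-poor ones with 1 to 30 lists 7.03% and 1.11%.

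RE1, sought from 500 bp before to 500 bp after the TSS with at most 1 mismatch, was found in 13 members (2.26%, 1.33 to 3.83%), against 0.630% of CpG-rich promoters with 31 or more lists, 0.720% of CpG-poor ones with 1 to 30 lists and 0.639% of all coding promoters. Of the 13, 11 had an observed over expected CpG from 0.5 to 0.6, close to the limit of the rule. Only 1 was among the 180 CpG-depleted members (0.556%), and 0 were among the 99 of low GC share alone. Summits gathered on RE1: in 10 of the 13 the centre of the nearest match lay within 50 bp of the median summit. At LHFPL5 the centre and the median summit both lay 47 bp upstream, at RUNDC3A, a neuronal gene, they lay 17 and 16 bp downstream, and at GPR6, an orphan receptor gene of the brain, 388 and 390.0 bp downstream. At HTR5A the nearest of the 3 matches, printed above, lay 184 bp and the median summit 194 bp upstream. The interquartile range of summits over the lists had a median of 22.3 bp over the 13, with 9 bp at CHRNB2, 11 bp at HTR5A and 15 bp at LHFPL5 but 134 bp at MAD2L1BP, 208 bp at TNFRSF6B and 280.5 bp at RGS19, whose summits lay away from the match. The median was 131 bp over all members and 165.5 bp over CpG-rich promoters with 31 or more lists. REST itself was not among the lists, and RE1 at the most bound regions of these data was known when this search was made.

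Members were unevenly spread over chromosomes. On chromosomes 2, 6, 14, 16, 17 and 20 together 16.7% of CpG-poor coding promoters were members (300 of 1801, 95% Wilson interval 15 to 18.4%), against 5.23% (275 of 5256, 4.66 to 5.87%) on the other chromosomes. Single chromosomes of the first set had between 13.8% (17) and 19.1% (20), and the highest of the others was 12 with 9.95%. CpG-rich promoters followed the same order, with 67.4% at 31 or more lists in the set and 46.6% outside it. No CpG-poor promoter was a member on X (0 of 412), Y (0 of 38) or chromosome 18 (0 of 55), and 8 of 447 CpG-rich promoters on X (1.79%) had 31 or more lists. X, Y and 18 are counted with the other chromosomes in the shares above, and lower those shares.

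This set of chromosomes was picked after these shares were seen. Every one of the preferred lists had a peak at a larger share of CpG-poor promoters on these chromosomes than elsewhere, with a median over lists of 9.05% against 2.87%. The non-preferred lists showed the same, with EP300 at 12.5% against 4.39%, TSC22D2 at 13.2% against 4.38% and ZZZ3 at 11.2% against 4.51%. The set held 45.3% of all peaks and 27.5% of coding promoters. Members there had a median of 54 lists, against 43 for members elsewhere, and 48 of the 60 members with more than 75 lists lay in the set. HepG2 is known to be aneuploid with extra copies of several chromosomes, 2, 14, 16, 17 and 20 among them, copy number was not measured here, and its part in the number of lists was not tested. Without the 6 chromosomes the comparisons with CpG-rich promoters gave -16.9 bp for summit distance (adjusted p = 6e-05) and 2.71 points for signal rank (adjusted p = 0.00024).

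**Figure D5:**
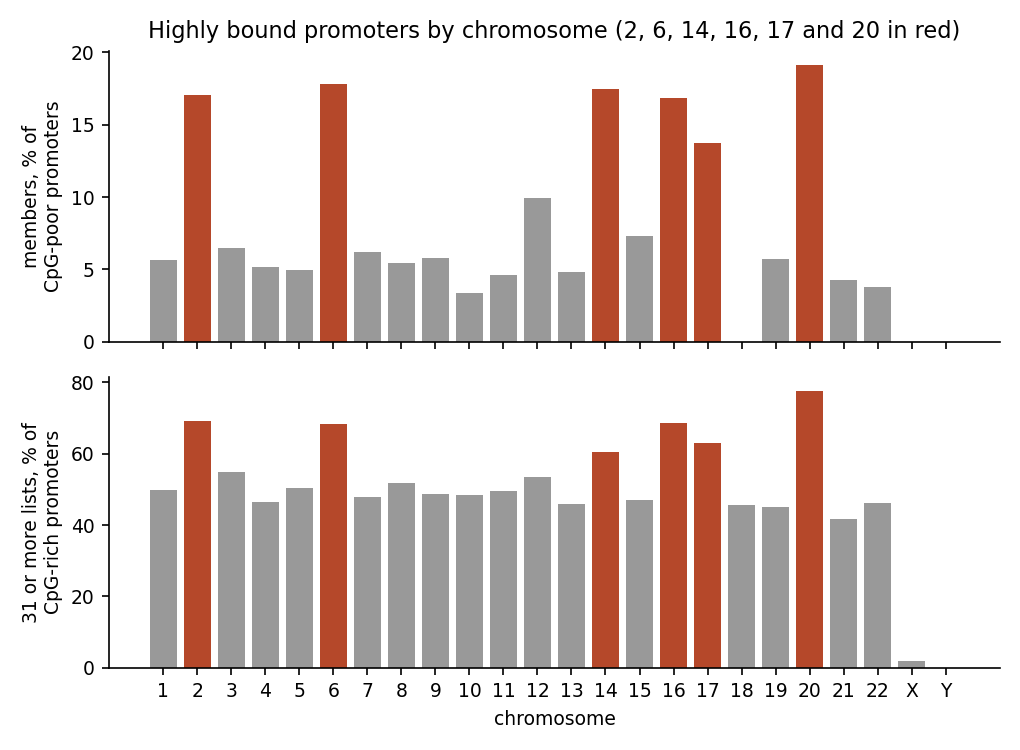
Share of CpG-poor coding promoters that are members (upper panel, %) and share of CpG-rich coding promoters with 31 or more lists (lower panel, %) by chromosome (x axis), with chromosomes 2, 6, 14, 16, 17 and 20 in red. The red bars stand at 13.8% to 19.1% in the upper panel, above every grey bar, of which chromosome 12 at 9.95% is the tallest.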

How the data were processed

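ChIP-seq peak lists of 127 FLAG-tagged DAPs in HepG2 were analysed, of 151 samples; the 24 inputs entered only as labels of shared controls. The authors ran the pipeline of the ENCODE project, with hg38 as the genome, and kept its optimal peak calls; its aligner and peak caller were not given in the sources used here. The deposited score follows the irreproducible discovery rate and served only as a filter. The deposited signal is not scaled between lists, so it was ranked within each list. Replicates are pooled in the lists and depth is unknown. No peak ran past a chromosome end of the hg38 reference; 128 peaks had a summit outside their interval and were used as given.

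A list counted at a promoter if a peak overlapped the window from 500 bp before to 500 bp after the TSS by any length, and the peak of highest signal gave rank and summit. Scripts used matplotlib 3.10.9, scipy 1.17.1, pandas 2.3.3 and numpy 2.4.6 under Python 3.11.15. Over lists, sign-flip tests (all flips for 6 lists, otherwise 100000 draws) or permutation of list labels (100000 draws, on log2 ratios with 0.5 added to counts) were used, two-sided, with Benjamini-Hochberg adjustment over 6 tests. The pair of tests on log2 ratios used the lists that chose the promoters and is not read. Each was tested on simulated data. The p-values measure the spread between lists of single experiments. For summit distance and signal rank the lists were read at the same promoters, which they had also chosen. Those p-values do not measure a spread between promoters. The 575 members, the gene lists and the motifs were chosen with earlier results of these data known.

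Promoters were named by rule: the 10 bound by most lists, the first 3 by symbol at 31 and at 30 lists, the 3 bound by most lists in each gene list, the 5 with TATAAA bound by most lists, and the 3 lowest in GC share and in CpG. Lists named were the non-preferred, the 5 with the highest and the 5 with the lowest log2 ratio among those with 20 or more members, and the 3 with most members. One promoter and some sequences so chosen are not reported here. RSPH3 and the RE1 promoters were named after their values were seen. Alternatives changed the score, overlap, window, number of lists, CpG rule, lists and promoters used.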

Additional observations from a re-analysis of the deposited data

Results flagged for a closer look

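GPBP1L1 stood apart from the other 5 non-preferred lists. It had a peak at 0.348% of members, whereas the next lowest list, TUT4, had 45.6%, a gap that made up 0.741 of the whole range of the 6 lists. Its list held 73 peaks, against 7508 to 17599 in the other 5. About 1 in 20 groups is marked in this way by chance, and the cause was not tested.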

How the results depend on the processing

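The number of members depended on the settings. It was 246 (3.49% of CpG-poor coding promoters) with scores of 830 or more, 349 (5.36%) with 250 bp and 2057 (21%) with 1000 bp on either side of the TSS, 149 (2.11%) at 61 lists, 1322 (15.1%) with a GC share of at least 0.55 and CpG of at least 0.65, and 180 (3.63%) with CpG over 0.4 as CpG-rich. It moved by less than 1.5 times to 493 (6.99%) with the summit in the window, 478 (6.77%) with 250 bp of overlap, 762 (10.8%) at 24 lists and 498 (7.06%) without the 5 longest lists. The next settings were added after the data were seen: 275 members (5.23%) remained without chromosomes 2, 6, 14, 16, 17 and 20, and 276 (4.97%) among promoters with no CpG-rich window within 2000 bp.

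Signal rank reversed to -0.84 points with 250 bp windows and to -2.66 with CpG over 0.4 as CpG-rich, and was no longer called at 24 lists (0.31 points), with TF lists alone (1.06) and without a CpG-rich window within 2000 bp (0.99). Summit distance reversed to 0.063 bp with 250 bp windows and was no longer called with CpG over 0.4 as CpG-rich (-7.89 bp). The causes were not tested. The difference between TF lists grouped by the start of their symbol, 0.00046 as a description, changed sign to -0.063 with scores of 830 or more, -0.0018 at 24 lists, -0.017 with the stricter CpG rule, -0.000081 with TF lists alone and -0.042 without the 6 chromosomes. Leaving out each non-preferred list in turn gave 36.5 to 47.4 points against CpG-poor and 2.13 to 5.34 against CpG-rich promoters; with 5 lists the exact p cannot go below 0.062. In all, 91 of 123 values kept their direction and call or, for counts, stayed within 1.5 times. TF against non-TF lists could not be run with TF lists alone. Unknown depth limits every statement on a list with few peaks.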
